A study of Rattus norvegicus with 4 samples.

Results

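The canonical Wnt response and the R-spondins were followed in the telencephalon, the front part of the embryonic forebrain, of rat embryos homozygous for a mutant Pax6 allele, rSey2/rSey2, and of wild-type rat embryos. Both genotypes had a Sprague-Dawley background and were taken at E11.5, with noon of the plug day as E0.5. Each genotype had 2 one-colour Affymetrix arrays, hybridised with biotin-labelled cRNA made from 10 µg of total RNA. The study's design text names 13 telencephalons per genotype and a repeat, so each array stands for pooled embryos, and whether every array had a pool of its own is not settled by it. Arrays of the same genotype are labelled as biological replicates, with no litters named. The p-values therefore reflect only how these arrays varied, which may in part be technical. The members were all probe sets (groups of oligonucleotides on the array that report 1 transcript) whose single gene symbol was Axin2, Rspo2, Rspo3, Lef1, Tcf7l1, Tcf7l2, Nkd1, Sp5, Rnf43 or Znrf3. This gave 16 of 31042 probe sets, for 7 of the 10 genes, out of 14217 genes with a symbol of their own. Rspo2, Sp5 and Rnf43 had no probe set under their symbol in the annotation used here and were not analysed. All 16 passed the filter on dim probe sets.

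In canonical Wnt signalling, a Wnt ligand bound to a Frizzled receptor and an Lrp co-receptor stops the destruction of beta-catenin, which then enters the nucleus and joins TCF/LEF factors on target genes. R-spondins are secreted proteins that bind Lgr receptors and remove the membrane ubiquitin ligases Rnf43 and Znrf3, which otherwise clear Frizzled from the cell surface. Axin2, Nkd1, Sp5, Rnf43 and Znrf3 are targets of the pathway that feed back on it. In the mouse forebrain the dorsal midline and the cortical hem are sources of Wnt and R-spondin signals, and Pax6 is a transcription factor of dorsal telencephalic progenitors.

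The 7 genes were grouped by whether the genotypes overlapped, and a difference between genes was not tested. In 3 of them the mutant lay below wild type on every probe set they had, with no overlap between the genotypes: the ligand Rspo3 (both probe sets), the transcription factor Tcf7l2 (all 5) and the feedback target Axin2 (its only probe set). Of all tested probe sets, counted singly, 11.8% lay below wild type without overlap, and counts per gene are given below for Tcf7l2 and Rspo3. The differences ran from -0.24 to -1.11 on the log2 scale. Lef1, Tcf7l1, Nkd1 and Znrf3 had overlapping genotypes on all but 1 probe set. None of the 16 differences passed the test over all probe sets (limma, Benjamini-Hochberg adjusted p = 1 for each, n = 2 arrays per genotype).

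Values are the authors' log2 GCRMA values, 1 per probe set and array, and arrays give no read depth. Median values over the 18625 tested probe sets were 8.22 and 8.35 in the rSey2/rSey2 arrays and 8.24 and 8.33 in the wild-type arrays. Probe sets with a mean under 3.21 were left out as dim. Pax6 itself had 11.78 and 11.63 in rSey2/rSey2, against 11.75 and 11.85 in wild type, and the sources used here do not place the lesion relative to its probe set, so this does not check the labels. Among 6 measured markers of the tissue, Sox2, Lhx2, Nes, Emx2 and Six3 passed the filter in both genotypes, with Six3 between 5.07 and 5.30, and Emx1 lay under it on every array. Lhx2 (0.30), Sox2 (0.22) and Six3 (0.18) lay above wild type without overlap, 3 of 5 beside 12.2% of all genes, and Emx2 lay below (-0.09). Their part in the members' values was not tested.

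The sequences around the transcription starts are shown for the 3 genes that lay below wild type and for Nkd1, a target that did not, because TCF/LEF factors act through a short DNA motif. Each run holds 250 bases before to 50 bases after the start, taken from RefSeq (build GRCr8) and written 5′ to 3′ along the gene. Capitals mark CTTTG on either strand (CAAAG when on the opposite strand), lengthened to CTTTGAT where the longer motif, which contains the shorter, was found.
Rspo3 (GRCr8, chr1:30112279-30112578, plus strand): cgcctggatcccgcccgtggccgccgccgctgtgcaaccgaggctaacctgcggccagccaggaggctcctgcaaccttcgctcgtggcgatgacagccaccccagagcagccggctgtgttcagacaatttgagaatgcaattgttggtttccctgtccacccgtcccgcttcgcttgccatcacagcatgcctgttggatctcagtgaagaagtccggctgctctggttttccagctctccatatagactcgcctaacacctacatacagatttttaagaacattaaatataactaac
Tcf7l2 (GRCr8, chr1:264791085-264791384, plus strand): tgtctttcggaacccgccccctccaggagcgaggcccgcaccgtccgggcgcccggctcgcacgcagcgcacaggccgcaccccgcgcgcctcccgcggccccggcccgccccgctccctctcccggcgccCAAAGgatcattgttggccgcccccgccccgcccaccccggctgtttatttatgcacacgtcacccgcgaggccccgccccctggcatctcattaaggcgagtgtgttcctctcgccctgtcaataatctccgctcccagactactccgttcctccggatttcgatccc
Axin2 (GRCr8, chr10:94398535-94398834, plus strand): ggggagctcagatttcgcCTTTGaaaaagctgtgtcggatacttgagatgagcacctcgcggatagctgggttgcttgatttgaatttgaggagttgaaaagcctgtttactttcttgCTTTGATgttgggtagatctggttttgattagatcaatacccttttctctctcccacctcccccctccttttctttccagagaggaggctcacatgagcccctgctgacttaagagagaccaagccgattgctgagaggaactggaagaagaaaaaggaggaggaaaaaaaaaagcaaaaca
Nkd1 (GRCr8, chr19:34722797-34723096, minus strand): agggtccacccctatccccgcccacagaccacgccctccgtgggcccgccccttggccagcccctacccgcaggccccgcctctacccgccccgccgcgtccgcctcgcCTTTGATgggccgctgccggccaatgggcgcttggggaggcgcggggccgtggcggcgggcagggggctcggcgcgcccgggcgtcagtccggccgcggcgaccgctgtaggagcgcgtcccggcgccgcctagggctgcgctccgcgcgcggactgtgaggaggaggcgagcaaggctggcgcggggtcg
The longer motif, CTTTGAT on either strand, stood once each in the Axin2 and Nkd1 windows and also in that of Sp5, hence in 3 of the 8 members found in the promoter table, beside 3.63% of all 33469 promoters in it. The shorter CTTTG stood in 7 of the 8, all but Rspo3, and in 53.8% of all promoters. Axin2 carried CTTTG at 232 and at 132 bases before its start, and only the nearer copy was the longer motif. Tcf7l2 carried it on the opposite strand, 119 bases before its start. Rspo2 and Znrf3 were not matched in the table. A match is a string of letters here and was not tied to binding.

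**Figure D1:**
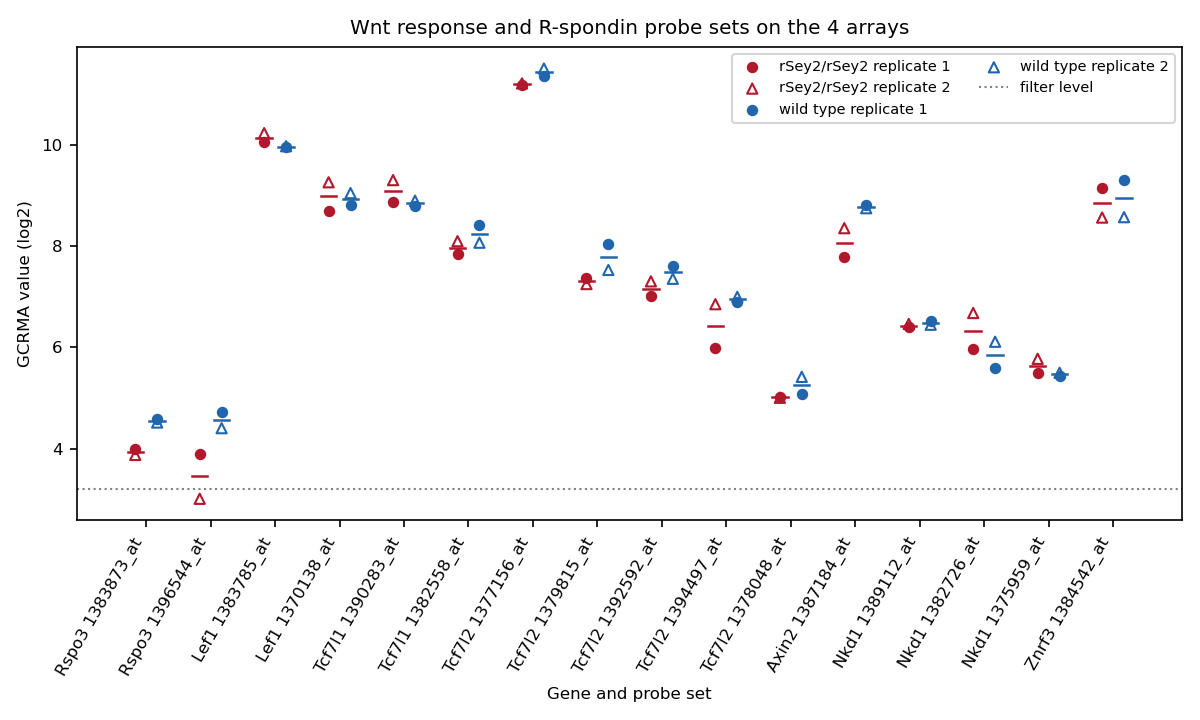
GCRMA values (log2) of the 16 probe sets on the 4 arrays, with rSey2/rSey2 in red left of wild type in blue, filled circles for replicate 1, open triangles for replicate 2 and bars for the mean of 2 arrays. The red symbols of Rspo3, Tcf7l2 and Axin2 lie below the blue ones, and the dotted line marks the filter level of 3.21.

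Rspo3 encodes a secreted R-spondin that raises the Wnt sensitivity of cells. Its probe set 1383873_at had 3.99 and 3.88 in rSey2/rSey2, against 4.59 and 4.52 in wild type. The replicates of each genotype lay close together and the genotypes stood apart. The means were 3.93 ± 0.08 in rSey2/rSey2 and 4.56 ± 0.05 in wild type (SD, n = 2 each). The difference was -0.62 (SE 0.08, 95% interval -0.88 to -0.37), a 1.54-fold lower value in the mutant. Its unadjusted limma p of 0.00387 was the 52nd lowest of the 18625, and its adjusted p was 1. In bulk tissue, fewer cells of a type and less RNA per cell cannot be told apart.

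The second Rspo3 probe set, 1396544_at, had 3.90 and 3.02 in rSey2/rSey2, against 4.73 and 4.41 in wild type. Again both mutant values were the lower ones, but the mutant replicates were 0.88 apart, and rSey2/rSey2 replicate 2 lay under the filter level. The difference was -1.11 (SE 0.37, 95% interval -2.25 to 0.03), with -1.55 when rSey2/rSey2 replicate 1 was left out and -0.67 when rSey2/rSey2 replicate 2 was left out. Both probe sets sat low on the scale, where GCRMA's background step weighs most. With a pseudocount of 16 added on the linear scale, the differences were -0.34 for 1383873_at and -0.54 for 1396544_at.

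Rspo3 is also known from blood vessels in the mouse, and the markers of other tissues were read beside it. All 7 tested endothelium markers were higher in rSey2/rSey2, beside 4907 of all 9840 tested genes. Kdr, Plvap and Emcn, 3 of the 7, did so without overlap, beside 12.2% of all genes. The others overlapped, with Tek at 0.004. Summed linear values of the 7 were 3602 and 4157 in the mutant arrays against 3274 and 3254 in wild type. Of the 8 head mesenchyme markers 3 were lower and 5 higher. Without overlap, 3 of the 8 lay above wild type, beside 12.2% of all genes, and 1 lay below, beside 12.1%. The sums of the 8 were 1917 and 2879 in rSey2/rSey2 against 2059 and 2440 in wild type. The 5 tested red cell markers were all higher, 4 of them without overlap, while Hbb overlapped at 0.05. Of the 5 tested surface ectoderm markers 3 were lower. Krt18 at -0.73 and Epcam at -0.92 lay below wild type without overlap, 2 of 5 beside 12.1% of all genes. Cdh1 lay above wild type without overlap at 0.59, beside 12.2%, and Tfap2a was at 0.05. The sums were 413 and 447 in rSey2/rSey2 against 533 and 431 in wild type. The part of these tissues in the Rspo3 values was not tested.

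Tcf7l2 is a TCF/LEF factor that binds beta-catenin and in mouse is a marker of the developing thalamus, behind the telencephalon. Its brightest probe set, 1377156_at, had 11.18 and 11.21 in rSey2/rSey2, against 11.359 and 11.5025 in wild type. This is a shift of -0.24 (SE 0.09, 95% interval -0.51 to 0.03), with the mutant arrays within 0.03 of each other. Probe set 1379815_at had 7.38 and 7.25 in rSey2/rSey2, against 8.05 and 7.53 in wild type, and differed by -0.48 (SE 0.22). Most of the spread there lay between the wild-type arrays.

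Probe set 1392592_at of Tcf7l2 had 7.02 and 7.30 in rSey2/rSey2, against 7.61 and 7.36 in wild type, and 1394497_at had 5.99 and 6.85 in rSey2/rSey2, against 6.898 and 6.998 in wild type. In both, rSey2/rSey2 replicate 1 was the lowest array and rSey2/rSey2 replicate 2 lay just under the lower wild-type array. Their differences were -0.32 (SE 0.16) and -0.52 (SE 0.35), and without rSey2/rSey2 replicate 1 they were -0.18 and -0.09. The fifth, 1378048_at, had 5.03 and 5.01 in rSey2/rSey2, against 5.09 and 5.42 in wild type, a difference of -0.24 that was -0.07 without wild-type replicate 2.

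Averaged over its 5 probe sets, Tcf7l2 stood at 7.42 ± 0.15 in rSey2/rSey2 and 7.78 ± 0.03 in wild type (SD, n = 2 each), a difference of -0.36. Of 51 genes with 5 tested probe sets, Tcf7l2 was the only 1 whose probe sets were all below wild type without overlap, and 0 were all above it. Among 13 genes with more than 5, 0 were all below. Of 2101 genes with 2 tested probe sets, as Rspo3 has, 61 were all below without overlap and 43 all above. The probe sets of a gene share its transcripts and the same 4 arrays, so the 5 are not separate pieces of evidence, and this count was made after the values were seen.

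Of 10 listed markers of the brain regions behind the telencephalon, 6 had a probe set and only Irx3 passed the filter. Irx3 had 8.47 and 8.67 in rSey2/rSey2, against 9.45 and 8.98 in wild type, a difference of -0.65 (SE 0.21, limma adjusted p = 1). En2 lay at the lowest value of the table on all 4 arrays, and Gbx2, Pax2, Barhl2 and Sim1 were also under the filter level. Irx3 lay below wild type in all pairings, beside 12.1% of all tested genes, and is only 1 marker. The part of tissue from behind the telencephalon in the Tcf7l2 values was not tested.

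The other TCF/LEF factors did not share this pattern. Lef1, which activates targets together with beta-catenin, had 10.05 and 10.23 in rSey2/rSey2, against 9.96 and 9.97 in wild type, on probe set 1383785_at. The mutant arrays were the higher ones, by 0.17 (SE 0.10), or by 0.08 without rSey2/rSey2 replicate 2 and 0.26 without rSey2/rSey2 replicate 1. On 1370138_at Lef1 had 8.70 and 9.26 in rSey2/rSey2, against 8.81 and 9.05 in wild type, and the genotypes overlapped, with a difference of 0.05 (95% interval -0.70 to 0.81).

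Tcf7l1 is a TCF factor that mainly represses targets in the absence of Wnt. Its probe sets disagreed in direction: 1390283_at had 8.88 and 9.30 in rSey2/rSey2, against 8.79 and 8.90 in wild type, and 1382558_at had 7.84 and 8.10 in rSey2/rSey2, against 8.42 and 8.07 in wild type. The differences were 0.25 (SE 0.18) and -0.28 (SE 0.18), and in both the genotypes overlapped. Single arrays set these sizes: 1390283_at was at 0.04 without rSey2/rSey2 replicate 2 and 0.46 without rSey2/rSey2 replicate 1, and 1382558_at was at -0.10 when wild-type replicate 1 was left out, and at -0.45 when wild-type replicate 2 was. Tcf7, a further factor of the family from the list of nuclear cofactors, had 9.17 and 9.30 in rSey2/rSey2, against 9.16 and 8.93 in wild type, a difference of 0.19 (SE 0.12). Tcf7l2 was thus the factor of the 4 whose probe sets all lay below wild type, but a difference between the factors was not tested.

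Axin2 is a scaffold of the beta-catenin destruction complex and the target most often used to read canonical Wnt activity. Its probe set, 1387184_at, had 7.78 and 8.35 in rSey2/rSey2, against 8.81 and 8.75 in wild type. Both mutant arrays were below both wild-type arrays, by between 0.39 and 1.04 over the 4 pairings. The means were 8.06 ± 0.41 in rSey2/rSey2 and 8.78 ± 0.05 in wild type (SD, n = 2 each). The difference was -0.71 (SE 0.24, 95% interval -1.44 to 0.01), a 1.64-fold lower value, with an unadjusted limma p of 0.0514 and an adjusted p of 1. It was -0.43 without rSey2/rSey2 replicate 1 and -1.003 without rSey2/rSey2 replicate 2.

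Nkd1, which binds Dishevelled and damps the pathway, carries the same CTTTGAT letters as Axin2 in its promoter but did not lie below wild type on its 3 probe sets together. Probe set 1389112_at had 6.40 and 6.46 in rSey2/rSey2, against 6.52 and 6.45 in wild type, and differed by -0.05 (95% interval -0.29 to 0.18). Probe set 1375959_at had 5.49 and 5.78 in rSey2/rSey2, against 5.44 and 5.50 in wild type, a difference of 0.16 (SE 0.13). The genotypes overlapped on both.

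The third Nkd1 probe set, 1382726_at, had 5.97 and 6.68 in rSey2/rSey2, against 5.59 and 6.11 in wild type. Replicate 2 exceeded replicate 1 by 0.71 in rSey2/rSey2 and by 0.52 in wild type, more than the difference of 0.47 (SE 0.35) between genotypes. Znrf3, the ubiquitin ligase that R-spondins remove from the membrane, showed the opposite split. It had 9.15 and 8.56 in rSey2/rSey2, against 9.31 and 8.57 in wild type. Its replicates differed by 0.59 in rSey2/rSey2 and by 0.74 in wild type, while the genotypes differed by -0.08 (95% interval -1.23 to 1.06), so a 2-fold difference in either direction was within the interval.

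**Figure D2:**
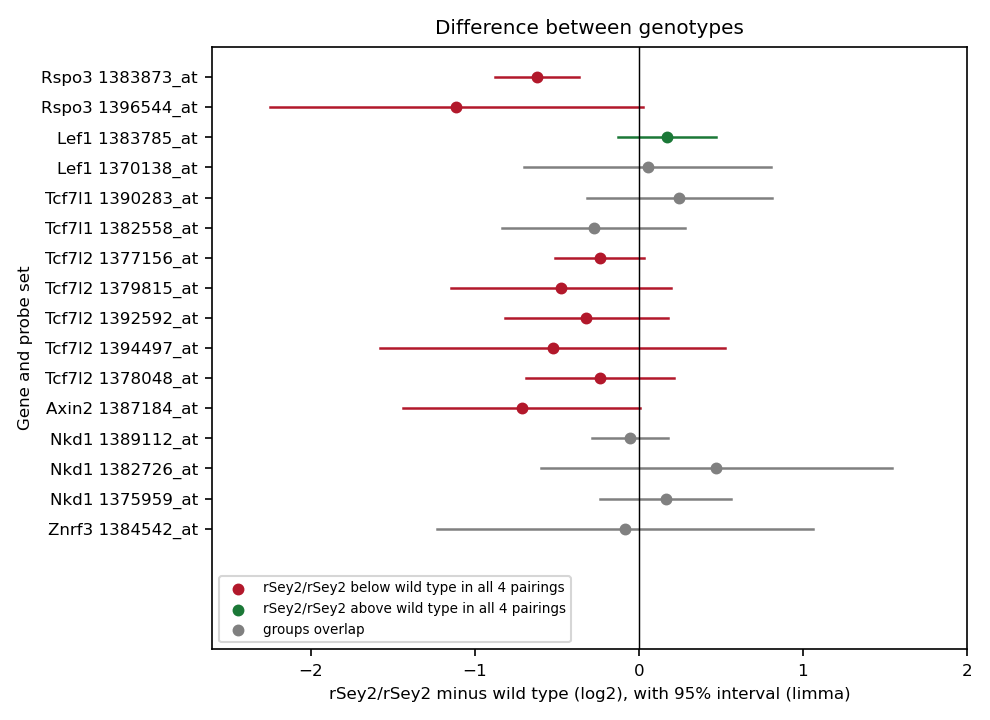
Difference between rSey2/rSey2 and wild type (log2) for each probe set, with the 95% interval from limma as a line. Red marks the 8 probe sets below wild type in all 4 pairings of arrays, green the 1 above, and grey the 7 whose genotypes overlap. The interval of Rspo3 1383873_at, from -0.88 to -0.37, does not reach 0.

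Over the 16 probe sets, 11 differences were negative and 5 positive, with a median of -0.24, beside a median of 0 over all tested probe sets. Without overlap, 8 lay below wild type, beside 11.8% of all tested probe sets, and 1 lay above, beside 11.4%. Of these 8, 7 belong to Tcf7l2 and Rspo3, so the count stands for 3 genes. The 2 Rspo3 probe sets were lower by at least 0.5 in all 4 pairings, which 0.499% of tested probe sets were, and 0 members were higher by as much, beside 0.349%. By adjusted p, limma called 0 members, beside 0% of all tested probe sets. At an unadjusted p under 0.05 it called 1 member, Rspo3 1383873_at, beside 3.65%. Against 680 of all 18625 tested probe sets here, that count was 4 without rSey2/rSey2 replicate 1, where 1188 had such a p. With 2 arrays against 2, the smallest two-sided p of an exact permutation test is 0.333, and no such test was run.

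**Figure D3:**
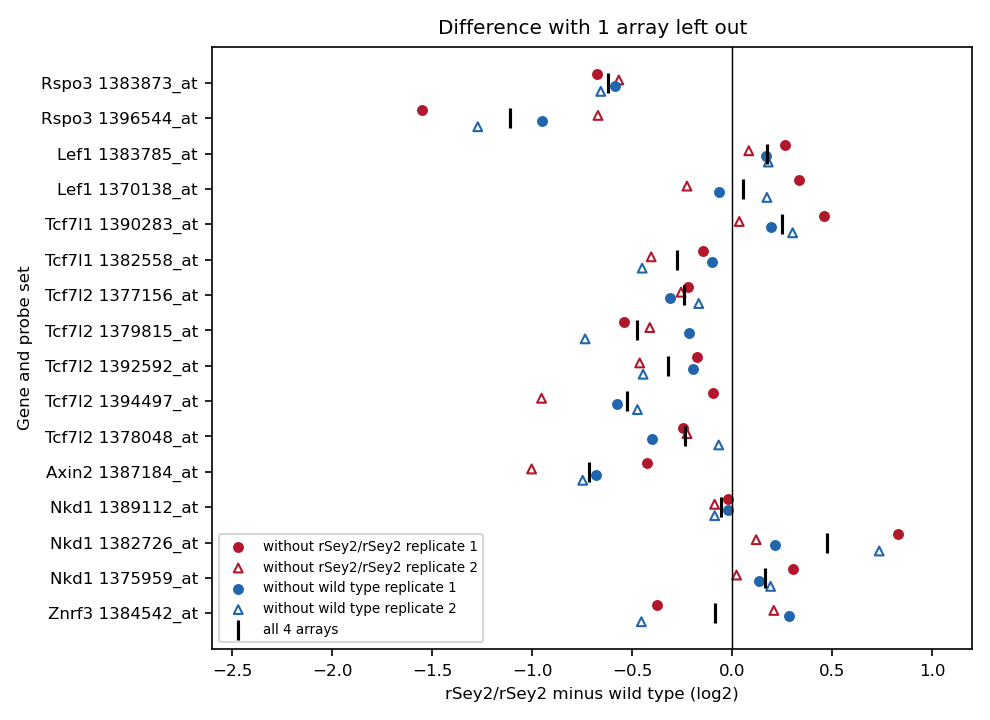
Difference between rSey2/rSey2 and wild type (log2) for each probe set with 1 array left out (symbols) and with all 4 arrays (black bars). Every symbol of Rspo3, Tcf7l2 and Axin2 lies left of 0, between -1.55 and -0.07, while those of Lef1 1370138_at and Znrf3 lie on both sides.

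The same lack of overlap fixes the sign when an array is left out, so only the sizes are informative there. Among the 8 probe sets below wild type, Rspo3 1383873_at moved least, between -0.68 and -0.57. Tcf7l2 1377156_at stayed between -0.31 and -0.17. In the other 6 probe sets that lay below wild type without overlap, leaving out some array changed the size by more than 1.5 times against that with all arrays. The values given above for Rspo3 1396544_at and Axin2 are of this kind. Without wild-type replicate 1, Tcf7l2 1378048_at differed by -0.40 and 1392592_at by -0.19, and without rSey2/rSey2 replicate 2, 1394497_at differed by -0.95. For Tcf7l2 1379815_at the difference was -0.22 when wild-type replicate 1 was left out, and -0.74 when wild-type replicate 2 was.

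Genes that carry the pathway upstream and downstream were read from 5 lists, with 1 probe set per gene. Of 54 tested genes 29 were lower and 24 higher in rSey2/rSey2, with a median of -0.02, and 49.4% of all 9840 tested genes were lower. Single arrays set this balance: 20 of the 54 were lower without rSey2/rSey2 replicate 1, 35 without rSey2/rSey2 replicate 2 and 23 without wild-type replicate 2. The median over all tested probe sets moved with these arrays too, to 0.03, -0.03 and 0.02 in that order. The share of all genes that were lower was not computed with an array left out. Whether the lists moved more than other genes was not tested. Without overlap, 8 of the 54 lay below wild type, beside 12.1% of all genes, and 5 lay above, beside 12.2%. None passed over all probe sets (limma), and 4 had an unadjusted p under 0.05, as did 353 of all 9840 genes (3.59%).

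Of the 10 tested receptors 7 were higher, and their median was 0.15. Fzd8, a Frizzled receptor of the early forebrain, had 10.31 and 10.41 in rSey2/rSey2, against 9.66 and 10.06 in wild type, a difference of 0.50 (SE 0.17). Fzd1 lay on the other side at -0.42 (SE 0.17). Lgr4, the R-spondin receptor that could be tested, had 7.79 and 7.93 in rSey2/rSey2, against 7.20 and 7.86 in wild type, and the genotypes overlapped. Lgr5 and Lgr6 were under the filter level on all arrays.

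In the cytoplasmic list 9 of 14 genes were lower, with a median of -0.04. Beta-catenin itself, Ctnnb1, was bright, with 14.71 and 14.70 in rSey2/rSey2 against 14.91 and 14.54 in wild type. The destruction complex genes Axin1 and Gsk3b overlapped between the genotypes, with differences of 0.07 and -0.04. Apc lay above wild type by 0.24 (SE 0.10), and Frat2, which binds the kinase of that complex, lay below by -0.25 (SE 0.12).

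Of 12 nuclear cofactors 6 were lower and 5 higher, and Bcl9l had the same value on every array. The corepressor Tle4 had 11.39 and 11.55 in rSey2/rSey2, against 11.12 and 11.11 in wild type, a difference of 0.36 (SE 0.09, adjusted p = 1 in limma). Cby1, which binds beta-catenin, differed by -0.16 (SE 0.11).

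The 11 other tested Wnt targets had a median of 0.01, and 5 of them were lower; their difference from Axin2 was not tested. Without overlap, 2 lay below wild type, beside 12.1% of all genes, and 2 above, beside 12.2%. Ccnd1, the cyclin of early G1, had 12.81 and 13.03 in rSey2/rSey2, against 12.28 and 12.70 in wild type, a difference of 0.43 (SE 0.20). Tnfrsf19, a receptor of the tumour necrosis factor family, had 7.98 and 8.55 in rSey2/rSey2, against 8.55 and 8.78 in wild type, a difference of -0.40 (SE 0.25).

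Among the 8 tested cortical hem genes 6 were lower (median -0.07), where 49.4% of all genes were, and 3 lay below wild type without overlap, beside 12.1%. Dkk3, a Dickkopf family member, differed by -1.56. Msx2, a homeobox gene that responds to BMP signals, had 4.57 and 4.56 in rSey2/rSey2, against 5.39 and 5.35 in wild type. The ligand Bmp4 had 7.42 and 7.44 in rSey2/rSey2, against 7.91 and 7.75 in wild type, a difference of -0.40 (SE 0.09). Wnt8b, a Wnt ligand of the hem, overlapped at -0.01 (SE 0.15), as did Bmp7 at -0.05 and Msx1 at -0.08. Otx2 (0.24) and Wnt5a (0.10) were higher in rSey2/rSey2 and also overlapped. Of 12 hem genes with a probe set, Wnt2b, Ttr, Bmp6 and Rspo1 lay under the filter level on all arrays. These lists were chosen with earlier results of these data known, so the hem list's direction is a description.

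**Figure D4:**
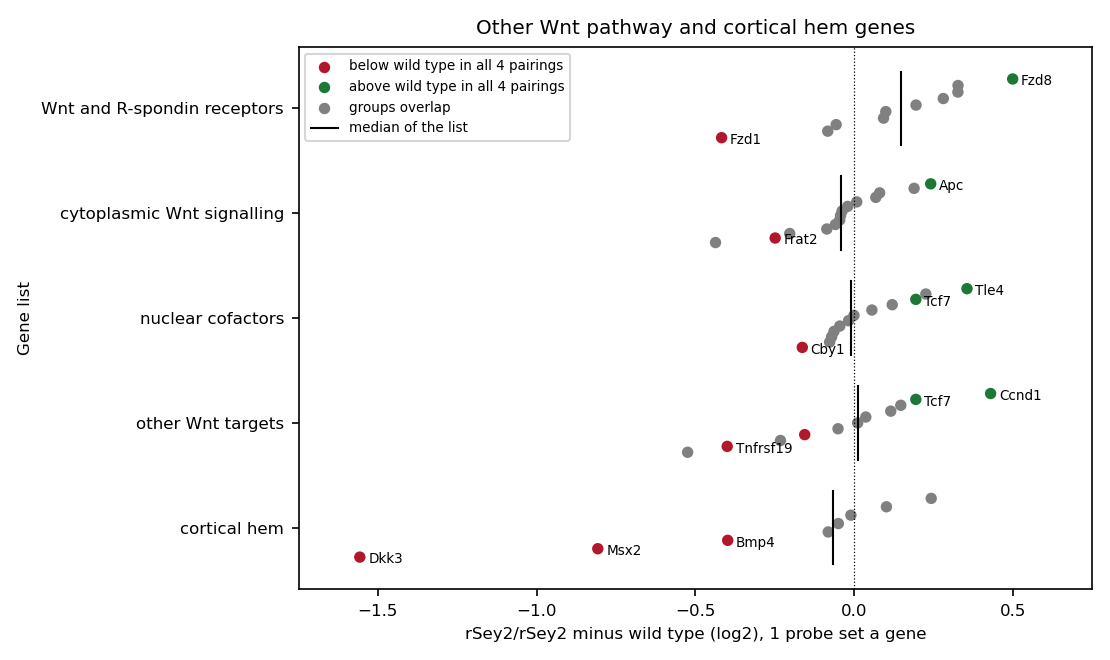
Difference between rSey2/rSey2 and wild type (log2) for the tested genes of 5 lists, 1 point per gene, with the median of each list as a black line. Red points lie below wild type in all 4 pairings and green points above. Medians lie between -0.07 and 0.15, and Dkk3 and Msx2 of the cortical hem list lie farthest to the left.

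The genes whose profile over the 4 arrays came closest to each of 2 members were named by the distance between profiles centred on their own means. For Rspo3, read only from its brighter probe set 1383873_at, these were Erich2 (0.08 log2), S1pr1 (0.09) and C7h12orf75 (0.14). S1pr1, a receptor for sphingosine 1-phosphate, had 9.23 and 9.11 in rSey2/rSey2, against 9.80 and 9.65 in wild type. For Axin2 they were Vps13c (0.09), Klf5 (0.16) and Prmt8 (0.19). The nearest 2 were dim. Vps13c had 3.62 and 4.27 in rSey2/rSey2, against 4.78 and 4.68 in wild type. Klf5 had 2.69 and 3.06 in rSey2/rSey2, both under the filter level, against 3.67 and 3.51 in wild type. Prmt8, an arginine methyltransferase of neurons, had 6.78 and 7.41 in rSey2/rSey2, against 7.65 and 7.82 in wild type. With 4 arrays, many of 9840 genes can come close in profile without further likeness.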

How the data were processed

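The deposited values are log2 signals. Per the submitters' processing notes, the authors used GCRMA, whose version is not given in the sources used here. This method subtracts a sequence-based background, normalizes between arrays and summarises probes, so low values depend on that background step. That the scale is log2 follows from the range, 2.07 to 16.13. They were not normalized again.

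Of 31099 probe sets, 57 controls were left out. The platform annotation gave 1 symbol to 20826 probe sets, several to 436 and none to 9780; 20758 of the first kind matched the RefSeq gene table. Probe sets with a mean over 4 arrays under the 40th percentile (3.21) were left out, and limma (version 3.58.1, R 4.3.3) fitted genotype alone to the other 18625, with eBayes and Benjamini-Hochberg adjustment at 0.05. Differences are rSey2/rSey2 minus wild type. Arrays give no depth, and 2 arrays per genotype limit precision. The procedure was run on simulated data with independent arrays, which does not show how it performs on these arrays.

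Text names every member probe set, up to 3 genes without overlap and with the largest difference per pathway list, and the 3 nearest profiles to Axin2 and Rspo3. Lgr4, Ctnnb1, Axin1, Gsk3b, Bcl9l and the named hem genes other than Dkk3, Msx2 and Bmp4 were named after their values were seen. So were the tissue markers given with values. The brightest probe set stood for a listed gene. The members and lists were chosen with earlier results of these data known. Alternatives were another normalization, filter, pseudocount, variance model, a replicate block, the mean of a gene's probe sets, and each array left out. No genomic position is given for array features, since no build is named for them.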

Additional observations from a re-analysis of the deposited data

How the results depend on the processing

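Under the 12 alternatives, 0 member probe sets were called in limma, and 181 of 185 recomputed member differences kept their direction. Many of these could not turn. The filters, the replicate block, the trend and the removal of zero-variance probe sets leave a difference unchanged by construction. Nor could a probe set without overlap turn when an array was left out. The 4 that turned came with 1 array left out. Lef1 1370138_at was at -0.07 without wild-type replicate 1 and ran from -0.23 without rSey2/rSey2 replicate 2 to 0.33 without rSey2/rSey2 replicate 1. Znrf3 was at 0.21 without rSey2/rSey2 replicate 2 and ran from -0.45 without wild-type replicate 2 to 0.29 without wild-type replicate 1. Over all tested probe sets, 2 were called after quantile normalization, 2 after median centring, 2 without the 249 probe sets of zero variance and 1 with the stricter filter (60th percentile), against 0 as reported; the cause was not tested. The stricter filter tested 12417 probe sets, 9 of them members, and left out both Rspo3 probe sets. Members with an unadjusted limma p under 0.05, beside all tested probe sets with one, numbered 1 beside 680 as reported. They numbered 3 beside 664 after quantile normalization, 3 beside 649 after median centring and 3 beside 722 with the pseudocount. They numbered 3 beside 591 without zero-variance probe sets, 3 beside 1194 with the replicate block and 2 beside 651 with the trend. With no filter, where 31042 probe sets were tested, they numbered 1 beside 989. With the stricter filter, and so without Rspo3, they numbered 1 beside 335. With 1 array left out they numbered between 2 and 4, beside 596 to 1188. The smallest adjusted p of a member over all alternatives was 0.727. Lower pathway genes numbered between 20 and 35 of 54 with 1 array left out, and were 29 or 30 of 54 after quantile normalization, median centring, the pseudocount, the block and the trend, 29 of 53 without zero-variance probe sets, 25 of 45 with the stricter filter, 34 of 68 with none and 27 of 54 with the mean of a gene's probe sets. With 1 array left out, the lone array of a genotype was assumed to vary like the others. With the replicate block, 0 probe sets were called. Deviations of same-numbered arrays correlated at 0.43, but the labels do not say that a number marks a shared litter or day, and 2 pairs do not settle it. Low signal limits Rspo3, and 2 arrays per genotype limit every value.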
